A study of Danio rerio with 2 samples.

Results

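Voltage-gated sodium and calcium channels were examined in trunk cells FAC-sorted for EGFP from zebrafish embryos at 48 h. The genes were taken by symbol alone: every scn gene whose number is followed by a letter, and every cacna, cacnb and cacng gene in the gene list. This gave 60 of 36351 listed genes, of which 14 encode sodium channel subunits (8 pore-forming α and 6 accessory β) and 46 encode calcium channel subunits (7 Cav1, 6 Cav2, 4 Cav3, 6 α2δ, 7 β and 16 γ). Of the 60 genes, 36 had at least 30 UMIs (unique molecular identifiers, each standing for 1 captured RNA molecule) in the cells kept and 24 had fewer, 1 of them with 0.

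Sodium channels carry the inward current of the action potential. Their α subunit forms the pore, and the single-pass β subunits set how the channel gates and where it is held in the membrane. Calcium channels turn depolarization into calcium entry. Cav1 (L-type) and Cav2 (P/Q-, N- and R-type) pores mostly open at stronger depolarization than Cav3 pores. Cav2 channels drive transmitter release at presynaptic terminals. Cav3 (T-type) pores open near rest and shape burst firing. The extracellular α2δ subunits and the cytoplasmic β subunits bring Cav1 and Cav2 pores to the membrane, and several γ proteins are known mainly as partners of AMPA-type glutamate receptors.

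The series held 2 libraries (10x Genomics 3′ chemistry, methanol-fixed cells) of these cells. The parents were evx1i232/+;evx2sa140/+ and were crossed with each other, and they carried Tg(evx1:EGFP)SU2, a transgene driven by *evx1* that marks V0v spinal interneurons, a class of excitatory commissural cells. All cells were untreated, and cells were not labelled by genotype, so that every genotype of the cross may be among them. The libraries share every label apart from their titles, which are not explained, and were taken as replicates 1 and 2 of 1 group. Library 1 held 18908819 UMIs in 4373 barcodes and library 2 held 34071583 UMIs in 6223 barcodes, and 3 barcodes occurred in both. After the study's limits, 3571 and 4556 cells were kept, with medians of 3669 and 4333.5 UMIs. The study rehydrated cells of several separate sorts before capture, but its methods do not tie a sort to a library. P-values therefore measure only how differences between groups vary between these libraries, after the libraries' shared difference is taken out. That spread may be technical.

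The cells were sorted into groups by UMIs of marker genes, none of which is a channel gene. Motoneuron-like neurons had UMIs of at least 2 of 8 motoneuron markers including an *mnx* gene. Inhibitory neurons had at least 2 UMIs of *slc6a5*, *slc6a1b*, *gad1b* and *gad2* and over 2 times as many as of the glutamate transporter genes *slc17a6a* and *slc17a6b*, and excitatory neurons were set by the converse rule. All remaining neurons are called other neurons, and non-neuronal cells had UMIs of at most 1 of 6 neuron markers. In libraries 1 and 2 there were 12 and 45 motoneuron-like, 1902 and 1414 other, 576 and 861 inhibitory, 488 and 571 excitatory, and 401 and 1495 non-neuronal cells, while 192 and 170 cells between neuron and non-neuronal were left out. Of the other neurons, 1068 and 694 had no transmitter UMI, 719 and 568 had exactly 1, and 115 and 152 had UMIs of both kinds, so that they hold unresolved excitatory and inhibitory cells. From here on, values are given for library 1 and then library 2, in CPM (UMIs of the gene per 1000000 UMIs of the group). The labels name the cells V0v interneurons, and the 3 V0v markers *evx1*, *evx2* and *skor2* summed to 1054 CPM in excitatory neurons of both libraries, 707 and 828 CPM in other neurons, 212 and 234 CPM in inhibitory neurons and 114 and 40.6 CPM in non-neuronal cells, and 22.2 and 77.6 CPM in motoneuron-like neurons.

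Channel transcripts were abundant in all neuron groups and low outside them. The 60 genes together reached 886 and 1353 CPM in motoneuron-like neurons, 1204 and 1298 CPM in other neurons, 1501 and 1589 CPM in inhibitory neurons, 1572 and 1685 CPM in excitatory neurons, and 156 and 83.4 CPM in non-neuronal cells. They held 35406 UMIs in kept cells, 14529 from sodium and 20877 from calcium channel genes. The 24 genes under 30 UMIs held 147 of these. Among those 24 were the 4 genes of the skeletal muscle pores, which were singled out after their values were seen: *scn4aa* had 3 UMIs, *scn4ab* 3, *cacna1sa* 1 and *cacna1sb* 7. These low counts hold for cells within the upper limits on UMIs and genes. Without those limits, *cacna1sa* and *cacna1sb* were among the channel genes called by the test of neurons against non-neuronal cells given below. Markers of skeletal muscle itself (10 of 10 genes found) summed to 753 and 820 CPM in motoneuron-like, 795 and 703 CPM in other, 683 and 746 CPM in inhibitory, 588 and 625 CPM in excitatory and 1011 and 796 CPM in non-neuronal cells. The source of these UMIs was not tested.

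**Figure D1:**
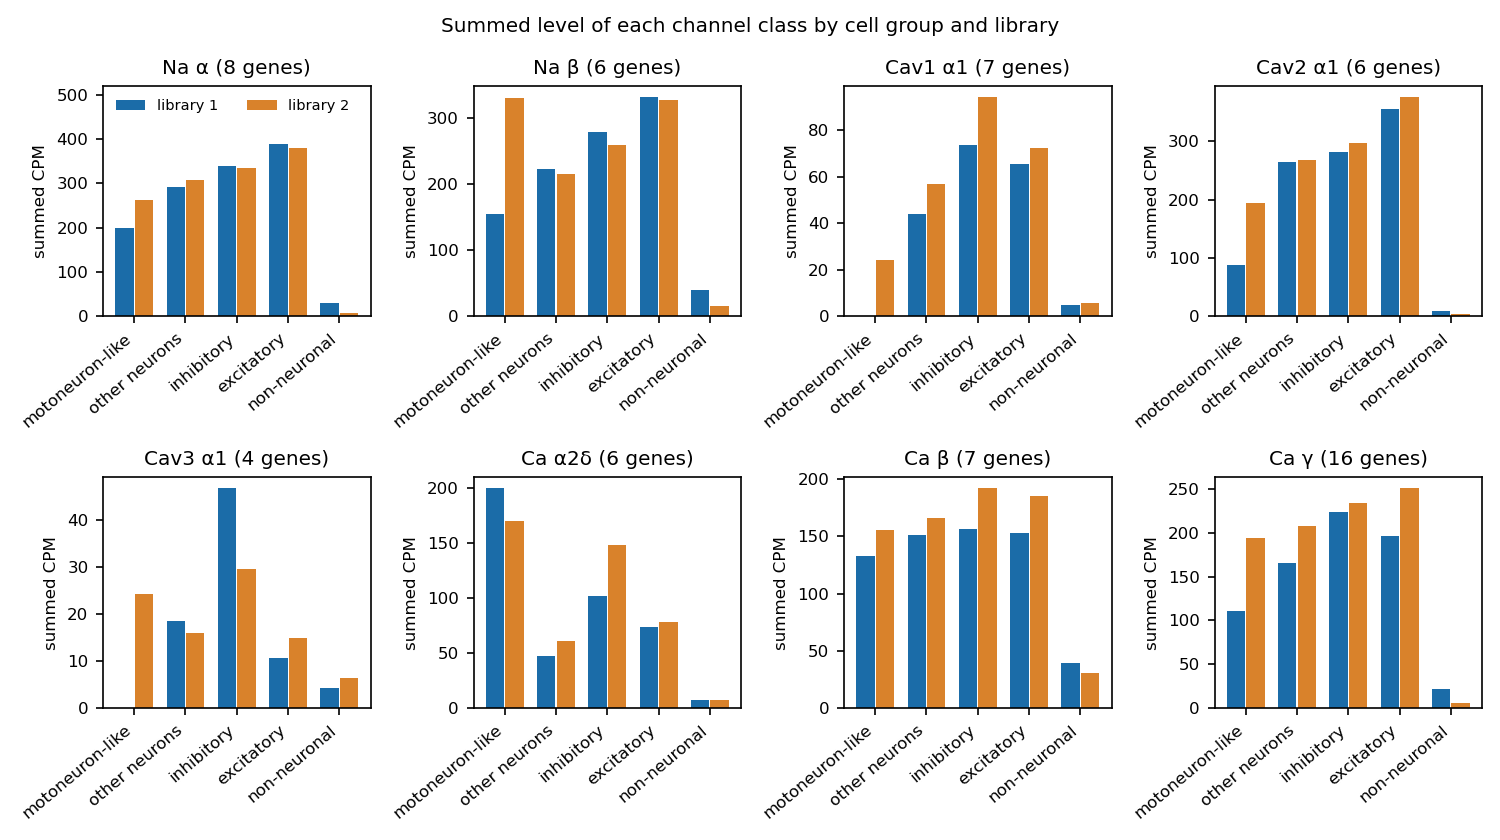
Bars give the summed CPM of each channel class (y axis) in 5 cell groups (x axis) of library 1 (blue) and library 2 (orange), without error bars since each bar is 1 library. Na α and Cav2 sums are highest in excitatory neurons in both libraries, Cav1 and Cav3 sums are highest in inhibitory neurons and α2δ sums in motoneuron-like cells. Motoneuron-like cells of library 1 number only 12.

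Each class was led by 1 to 3 genes. UMIs from the 3′ end carry no length term, but how well each 3′ end is annotated and captured differs between genes, so the shares below are of UMIs counted. The sodium pores were *scn8aa* (48.9% of the UMIs of its class) and *scn8ab* (28.2%), which encode Nav1.6-type channels, and *scn1lab* (19.2%), a Nav1.1-type channel. *scn8aa* stood at 88.6 and 131 CPM in motoneuron-like, 137 and 166 CPM in other, 154 and 171 CPM in inhibitory, 183 and 178 CPM in excitatory and 12.0 and 3.14 CPM in non-neuronal cells. The accessory *scn1ba* (β1) gave 53.8% and *scn4ba* (β4) 17.3% of the β UMIs. *scn1ba* was 10.4 times as high in neurons as in non-neuronal cells over both libraries (exact 95% interval of the UMI ratio 8.59 to 12.8, counting error only). That ratio pools libraries that differed outside neurons. The β class as a whole summed to 253 and 254 CPM in neurons, against 40.2 and 15.3 CPM in non-neuronal cells.

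Among calcium channel pores, *cacna1aa*, which encodes the P/Q-type Cav2.1 of presynaptic terminals, was the most counted member of all, with 15.6% of the channel UMIs and 76.5% of those of Cav2. It stood at 44.3 and 121 CPM in motoneuron-like, 206 and 209 CPM in other, 211 and 234 CPM in inhibitory, 261 and 275 CPM in excitatory and 7.77 and 2.10 CPM in non-neuronal cells. Its copy *cacna1ab* had 44.3 and 38.8, 24.1 and 26.2, 30.5 and 29.3, 46.8 and 52.1, and 0 and 0 CPM in the same groups. The excitatory libraries lay above the inhibitory ones for each copy, by amounts tested below. *cacna1da* (Cav1.3, L-type) gave 80.2% of Cav1 UMIs and *cacna1c* (Cav1.2) 18.1%. *cacna1g* (Cav3.1, T-type) gave 77.1% of Cav3 UMIs and *cacna1i* (Cav3.3) 12.9%.

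The auxiliary subunits were shared among more genes. The β class was led by *cacnb4b* (55.3%) and *cacnb2a* (25.8%), and the γ class by *cacng8b* (39.4%) and *cacng2b* (24.7%), which encode AMPA receptor partners. *cacnb4b* stood at 85.9 and 107 CPM in inhibitory and 84.4 and 101 CPM in excitatory neurons, and *cacng8b* at 90.5 and 92.5 CPM against 70.0 and 84.3 CPM. Of the α2δ UMIs, *cacna2d2a* gave 38.2%, *cacna2d3* 30.9% and *cacna2d2b* 25.9%. The class therefore had no single leader. As described below, *cacna2d3*, *cacna2d2b* and *cacna2d1a* differed between neuron groups, while *cacna2d2a* gave no call between inhibitory and excitatory neurons.

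The zebrafish genome keeps many of these genes as a and b copies. Of 25 such pairs in the list, 17 had at least 30 UMIs in neurons, and in 12 of them over 75% of the UMIs came from 1 copy. The *cacna1d* pair had 1248 UMIs from *cacna1da* and 4 from its copy. The *cacna1a* pair gave 87.7% to *cacna1aa*, with 88.0% in library 1 and 87.4% in library 2. The *scn8a* pair was closer, with 63.6% from *scn8aa*, and the *cacng2* pair had 54.8% from *cacng2b* in each library. The *cacna2d2* pair had 52.6% and 63.4% from *cacna2d2a*. Reads that fall in stretches shared by copies can be lost or misassigned, which was not tested.

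**Figure D2:**
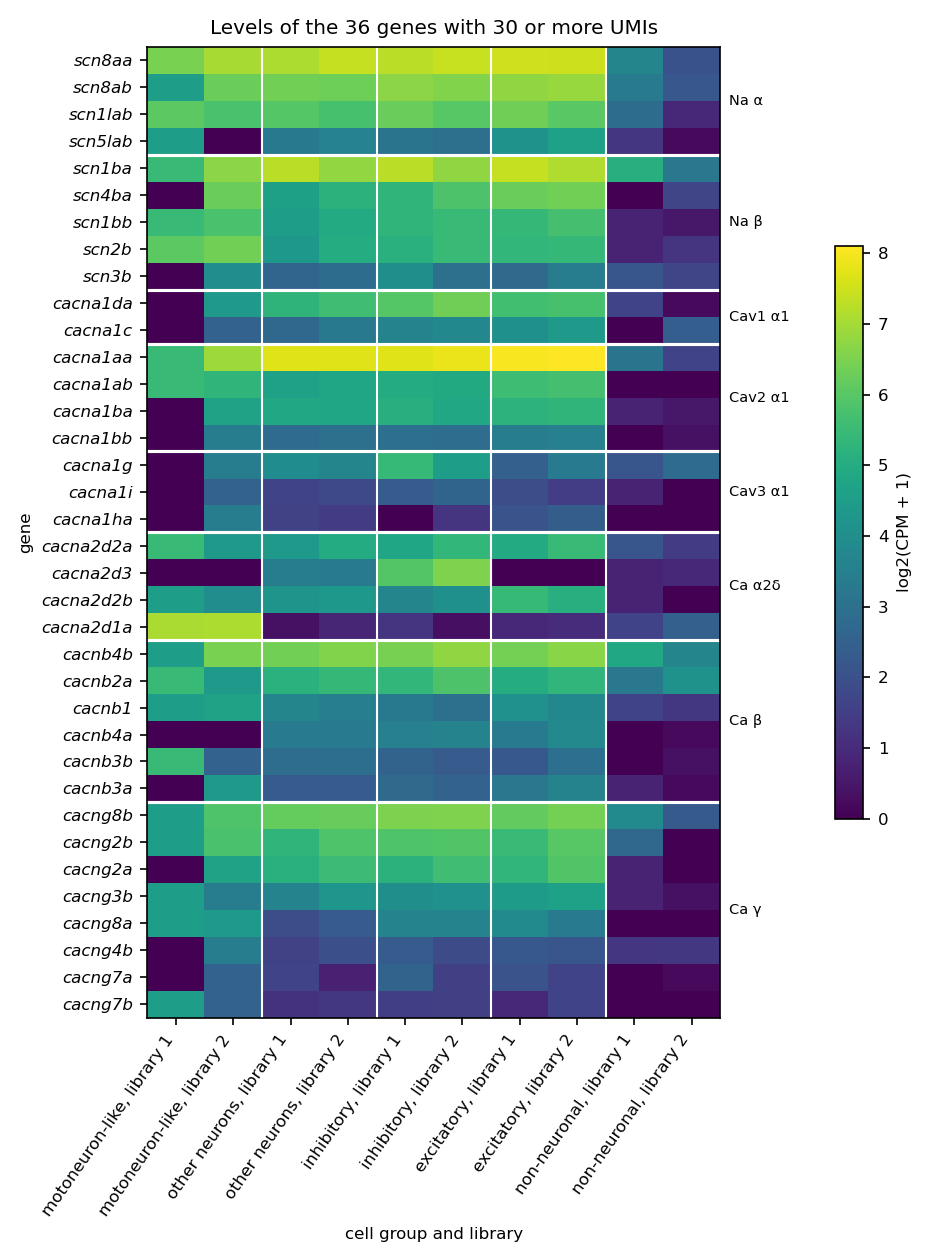
Colour gives log2(CPM + 1) of the 36 genes with 30 or more UMIs (rows, grouped by class and ordered by UMIs) in 5 cell groups of 2 libraries (columns). *cacna2d3* is at 0 CPM in excitatory and motoneuron-like columns of both libraries, and *cacna2d1a* is above 130 CPM in the motoneuron-like columns alone.

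The first comparison asked which channel genes separate neurons from the other cells of the sort. Of the 36 genes tested, 27 were higher in neurons and 0 were lower, against 22% of all 16080 genes called higher and 58.1% called in either direction (edgeR quasi-likelihood F test on UMIs summed per library and group, adjusted p under 0.05 by Benjamini-Hochberg over all genes). The median fitted log2 fold change was 4.08 over the 36 genes, or 3.70 with the 4 genes that had no UMI in non-neuronal cells set to their lower bound, against -0.27 over all genes tested. Each value compares the mean log level of the 4 neuron groups with non-neuronal cells. *cacna1aa* was higher in neurons by 5.32 ± 0.33 on the log2 scale (SE, adjusted p = 6.71e-07). *cacna1da*, at 2.12 and 0.150 CPM in non-neuronal cells, was higher in neurons by 5.76 ± 0.68 (adjusted p = 5.07e-05).

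Some genes had almost no UMI outside neurons. *cacna1ab* had 762 UMIs in neurons and 0 in non-neuronal cells, which makes it at least 84.8-fold higher in neurons (against a floor of 3 UMIs over both libraries). *cacng8a*, a γ8 gene, had 171 and 0 UMIs and was at least 19.0-fold higher. *cacng2a*, a γ2 (stargazin) gene, had 1032 UMIs in neurons and 1 in non-neuronal cells. *cacna1ha* (Cav3.2) and *cacng7b* passed the test with 50 and 39 UMIs in neurons and 0 outside, which bounds them at only 5.56-fold and 4.34-fold. *scn1bb* (β1) and *cacna1ba* (Cav2.2, N-type) also rose, by 5.76 ± 0.36 (adjusted p = 6.99e-07) and 5.24 ± 0.43 (adjusted p = 4.41e-06). With cells thinned to 2000 UMIs and the groups set again, *cacna1ab*, *scn1bb* and *cacna1ba* were still called. *cacng8a*, *cacng2a*, *cacna1ha* and *cacng7b* were then not called.

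Of the 9 genes that did not pass, some had unlike levels in the neuron groups, and whether this bears on the missing calls was not tested. *cacna2d3* had 594 UMIs in neurons and 7 outside, and *scn5lab* 276 and 3, and neither had a UMI in the motoneuron-like sum of library 2. *cacnb2a* stood at 8.47 and 16.9 CPM in non-neuronal cells, the highest level outside neurons of any calcium channel gene in library 2, and differed by 0.72 ± 0.29 (adjusted p = 0.0536). *cacna2d1a* had a higher CPM outside neurons than within them, with 34 UMIs in non-neuronal cells and 50 in neurons. Fibroblast-like markers (7 of 7 found) summed to 2338 and 5511 CPM and progenitor-like markers (7 of 7) to 2079 and 1257 CPM in non-neuronal cells, which are therefore a mixture, and their part in these levels was not tested.

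Inhibitory and excitatory neurons are the groups that the study's question turns on, since Evx1 and Evx2 are needed for V0v interneurons to be excitatory. Of the 36 genes tested, 3 differed: *cacna2d3* and *cacna1g* were higher and *cacna2d2b* was lower in inhibitory neurons, against 1.31% of all genes called higher, 1.17% called lower and 2.48% in either direction (398 of 16080). At an unadjusted p under 0.05 there were 9 of the 36, against 2022 of all 16080 genes. Neuron markers, which also set the groups, summed to 8449 and 8361 CPM in inhibitory and 10811 and 10758 CPM in excitatory neurons, and their part in the channel levels was not tested. The median log2 fold change of the 36 genes was -0.15, against 0.01 over all genes tested. The main pores gave no call: *scn8aa* differed by -0.14 ± 0.26, *scn8ab* by -0.17 ± 0.19, *scn1lab* by -0.05 ± 0.25 and *cacna1aa* by -0.26 ± 0.23 (SE, adjusted p = 0.902, 0.793, 0.988 and 0.738).

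*cacna2d3*, which encodes an α2δ-3 subunit, was found in inhibitory and not in excitatory neurons. It had 133 and 339 UMIs in inhibitory neurons (60.5 and 91.1 CPM), against 0 and 0 UMIs in excitatory neurons. The level was at least 43.5-fold higher in library 1 and at least 85.8-fold higher in library 2 (against a floor of 3 UMIs per library). The adjusted p was 9.75e-05 by edgeR, and between 2.37e-55 and 0.00258 under 15 alternatives. Other neurons had 9.48 and 9.12 CPM, motoneuron-like neurons 0 and 0 CPM and non-neuronal cells 0.706 and 0.898 CPM.

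Shares of cells were read at 1 depth. With each cell thinned to 2000 UMIs, *cacna2d3* had a UMI in 57 of 550 inhibitory cells of library 1 (10.4%, exact 95% interval 7.94 to 13.2) and in 134 of 845 of library 2 (15.9%, 13.5 to 18.5), against 0 of 480 and 0 of 568 excitatory cells, whose upper limits are 0.766% and 0.647%. In non-neuronal cells the shares were 0 of 321 and 1 of 1318 cells. Without thinning, the shares in inhibitory neurons were 16.8% and 27.6%, at median depths of 3710 and 4267 UMIs. Of all neurons with a *cacna2d3* UMI, 130 of 156 in library 1 and 266 of 282 in library 2 also had a UMI of an inhibitory marker (83.3% and 94.3%, against 33.0% and 43.0% of all neurons). Only 7 and 12 of them (4.49% and 4.26%) had a UMI of a glutamate transporter gene, against 36.7% and 40.7% of all neurons.

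*cacna1g*, the T-type pore gene, had 41.8 and 22.3 CPM in inhibitory neurons, against 4.64 and 8.86 CPM in excitatory neurons. The difference was 2.14 ± 0.42 on the log2 scale (SE, adjusted p = 0.0283). It was larger in library 1, where the ratio of CPM was 9.02 (exact 95% interval 4.69 to 19.4), than in library 2, where it was 2.52 (1.59 to 4.11), and these intervals do not overlap. The adjusted p was between 6.97e-09 and 0.0995 under 15 alternatives, and 11 of them kept the call. Excitatory neurons as a whole were close to the 3.53 and 6.14 CPM of non-neuronal cells, but they were uneven in library 2. Those without an *evx1* or *evx2* UMI had 5.21 and 24.9 CPM (3 and 18 UMIs), against 4.43 and 3.33 CPM in those with one. Other neurons lay between inhibitory and excitatory neurons, at 14.4 and 11.9 CPM. Inhibitory neurons were uneven: *cacna1g* had 91.5 and 53.6 CPM in those with a UMI of *slc6a1b*, against 12.9 and 11.6 CPM in those without. Cells with that UMI were 209 of 576 and 219 of 861, and this split was made after the values were seen, without a test. *cacna1i*, the second most counted T-type gene, had 4.09 and 5.11 CPM in inhibitory and 2.78 and 1.77 CPM in excitatory neurons, which did not pass the test (adjusted p = 0.58).

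*cacna2d2b*, an α2δ-2 gene, ran the other way. It had 12.3 and 15.9 CPM in inhibitory neurons, against 41.7 and 32.6 CPM in excitatory neurons, and fell by 1.35 on the log2 scale (SE 0.29, adjusted p = 0.0449). The ratio of CPM was 0.294 (exact 95% interval 0.184 to 0.457) and 0.487 (0.345 to 0.682). The call was near the threshold, with adjusted p between 0.000105 and 0.182 and 10 of 15 alternatives keeping it. Its copy *cacna2d2a* had 26.8 and 40.1 CPM in inhibitory and 30.1 and 44.3 CPM in excitatory neurons, a difference of -0.14 ± 0.23 (SE, adjusted p = 0.873).

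Some of the genes that missed the threshold are given here, picked after their values were seen. *scn5lab*, a sodium pore gene of the Nav1.5 type best known from the heart, had 7.73 and 6.99 CPM in inhibitory neurons, against 16.7 and 24.1 CPM in excitatory neurons (log2 difference -1.48 ± 0.35, SE, adjusted p = 0.0658). It passed in 4 of 15 alternatives. *scn4ba* had 38.2 and 55.9 CPM against 77.0 and 82.5 CPM (log2 difference -0.77 ± 0.24, SE, adjusted p = 0.188). *cacna1ab* had 30.5 and 29.3 CPM against 46.8 and 52.1 CPM (log2 difference -0.72 ± 0.19, SE, adjusted p = 0.125). In the other direction, *cacna1da* had 61.8 and 80.4 CPM against 49.1 and 52.8 CPM (adjusted p = 0.465).

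**Figure D3:**
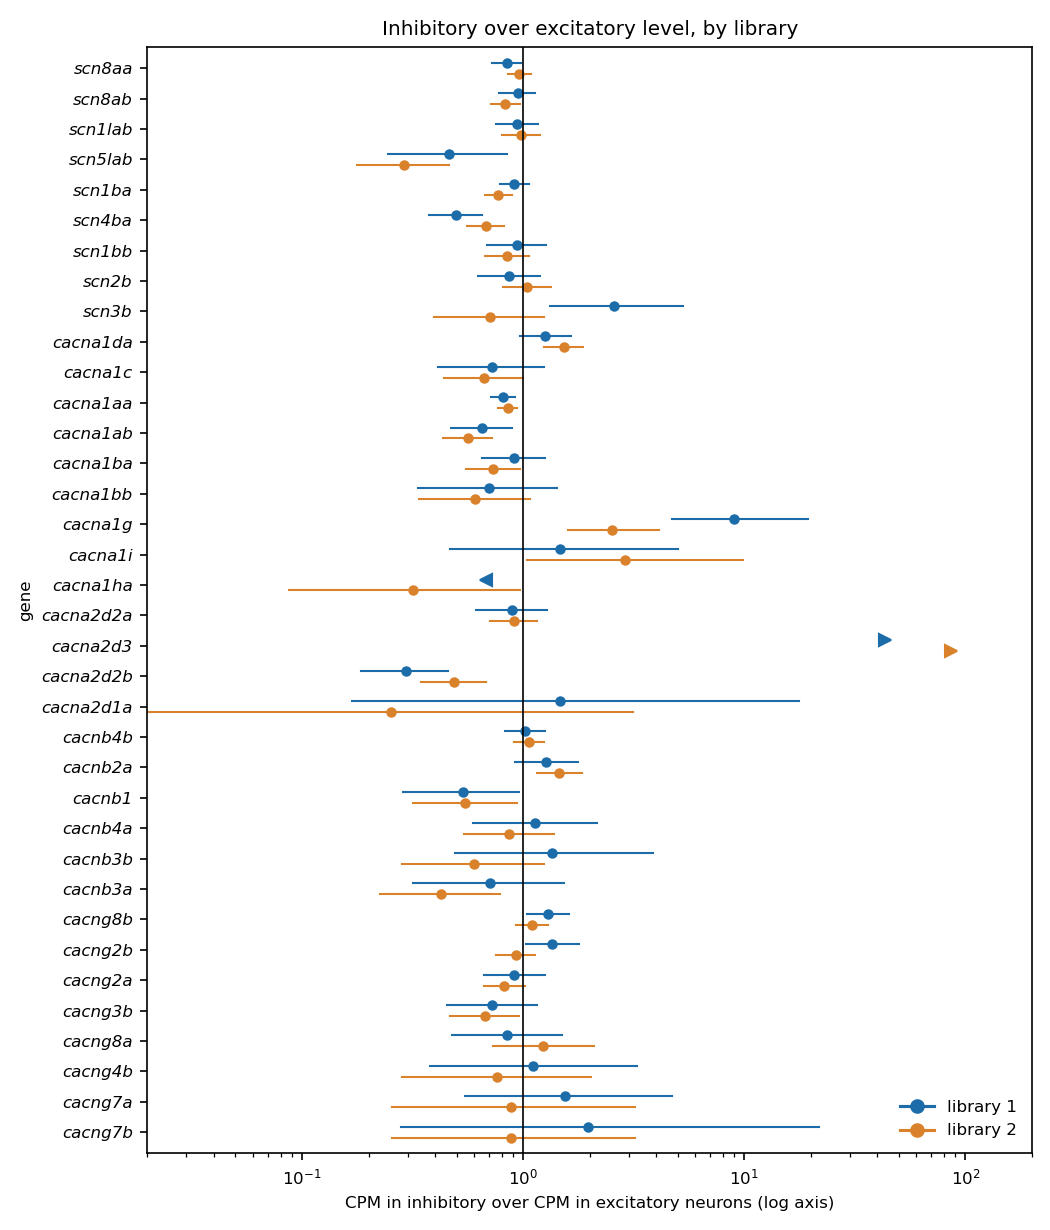
Points give the CPM in inhibitory over the CPM in excitatory neurons (log axis) for 36 genes in library 1 (blue) and library 2 (orange), with exact 95% intervals of the UMI ratio as lines (cut off at the left edge of the axis for *cacna2d1a*). Triangles are bounds where a group had no UMI, and those of *cacna2d3* stand at 43.5 and 85.8. Most genes lie close to 1, and *cacna1g*, *cacna2d2b* and *scn5lab* lie on 1 side in both libraries, as do other genes such as *cacna1ab*.

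Shares of cells with a UMI of any channel gene were near their ceiling in these groups. After thinning to 2000 UMIs, at least 1 of the 60 genes was seen in 92.4% and 93.1% of inhibitory, 92.9% and 92.8% of excitatory, 86.2% and 88.2% of other and 23.1% and 14.8% of non-neuronal cells. A sodium α gene was seen in 48.2% and 48.3% of inhibitory neurons and in 51.9% and 52.6% of excitatory neurons, against 5.61% and 1.82% of non-neuronal cells. A Cav2 gene was seen in 42% and 41.9% of inhibitory neurons (231 of 550 and 354 of 845 cells), against 50.6% and 47.7% of excitatory neurons (243 of 480 and 271 of 568 cells) and 0.935% and 0.607% of non-neuronal cells. A median of 2 to 3 of the 60 genes was seen per thinned neuron in each library and group, and 0 per non-neuronal cell, so that at this depth the channel set of a single cell is seen only in part.

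Inhibitory cells with a UMI of *hmx2* or *hmx3a* were then set against excitatory cells with a UMI of *evx1* or *evx2*, as the labels allow no contrast of genotypes. The first group held 265 and 300 cells and the second 345 and 415 cells. Of 33 genes tested, 4 differed, against 4.83% of all genes called (667 of 13798). *cacna2d3* and *cacna1g* were higher in the hmx inhibitory cells, against 2.94% of all genes, and *cacna2d2b* and *scn5lab* were lower, against 1.9%. Heat shock genes summed to 18319 and 2266 CPM in hmx inhibitory and 12718 and 2273 CPM in evx excitatory cells, and their part was not tested. These cells are part of the groups above, so the calls are no independent support. The median log2 fold change was 0.08 over the 33 genes and 0.01 over all genes tested.

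*cacna2d3* had 57.7 and 69.4 CPM in hmx inhibitory cells, against 0 and 0 CPM in evx excitatory cells, which is at least 30.4-fold and 48.6-fold higher (adjusted p = 1.66e-06). *cacna1g* had 56.8 and 38.2 CPM against 4.43 and 3.33 CPM, a log2 difference of 3.56 ± 0.52 (SE, adjusted p = 0.000647). Its ratios of CPM were 12.8 and 11.5, so the libraries were closer here than over all inhibitory and excitatory cells. *cacna2d2b* had 11.7 and 7.80 CPM against 41.7 and 31.4 CPM and fell by 1.94 (SE 0.38, adjusted p = 0.00634). *scn5lab* had 4.89 and 5.46 CPM against 12.6 and 25.2 CPM and fell by 1.90 (SE 0.50, adjusted p = 0.0419), a call kept by 10 of 15 alternatives.

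Within inhibitory neurons, the genes did not all follow the hmx genes. *cacna1g* was higher in cells with an hmx UMI, at 56.8 and 38.2 CPM, against 28.9 and 13.95 CPM in inhibitory cells without one, a ratio of 1.97 (exact 95% interval 1.27 to 3.10) and 2.74 (1.73 to 4.38). *cacna2d3* was not, at 57.7 and 69.4 CPM against 62.8 and 103 CPM, a ratio of 0.919 (0.641 to 1.31) and 0.677 (0.525 to 0.865). *cacna1ba* had 46.0 and 52.3 CPM in cells with an hmx UMI, against 22.9 and 15.2 CPM in those without. *cacng8a* had 19.6 and 18.7 CPM against 4.25 and 7.39 CPM. These splits were read after the values were seen, and they have no test across samples. A UMI of *slc6a1b* divided *cacna1g*, *cacna1ba* and *cacng8a* by wider gaps in CPM in both libraries, with values under other observations.

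**Figure D4:**
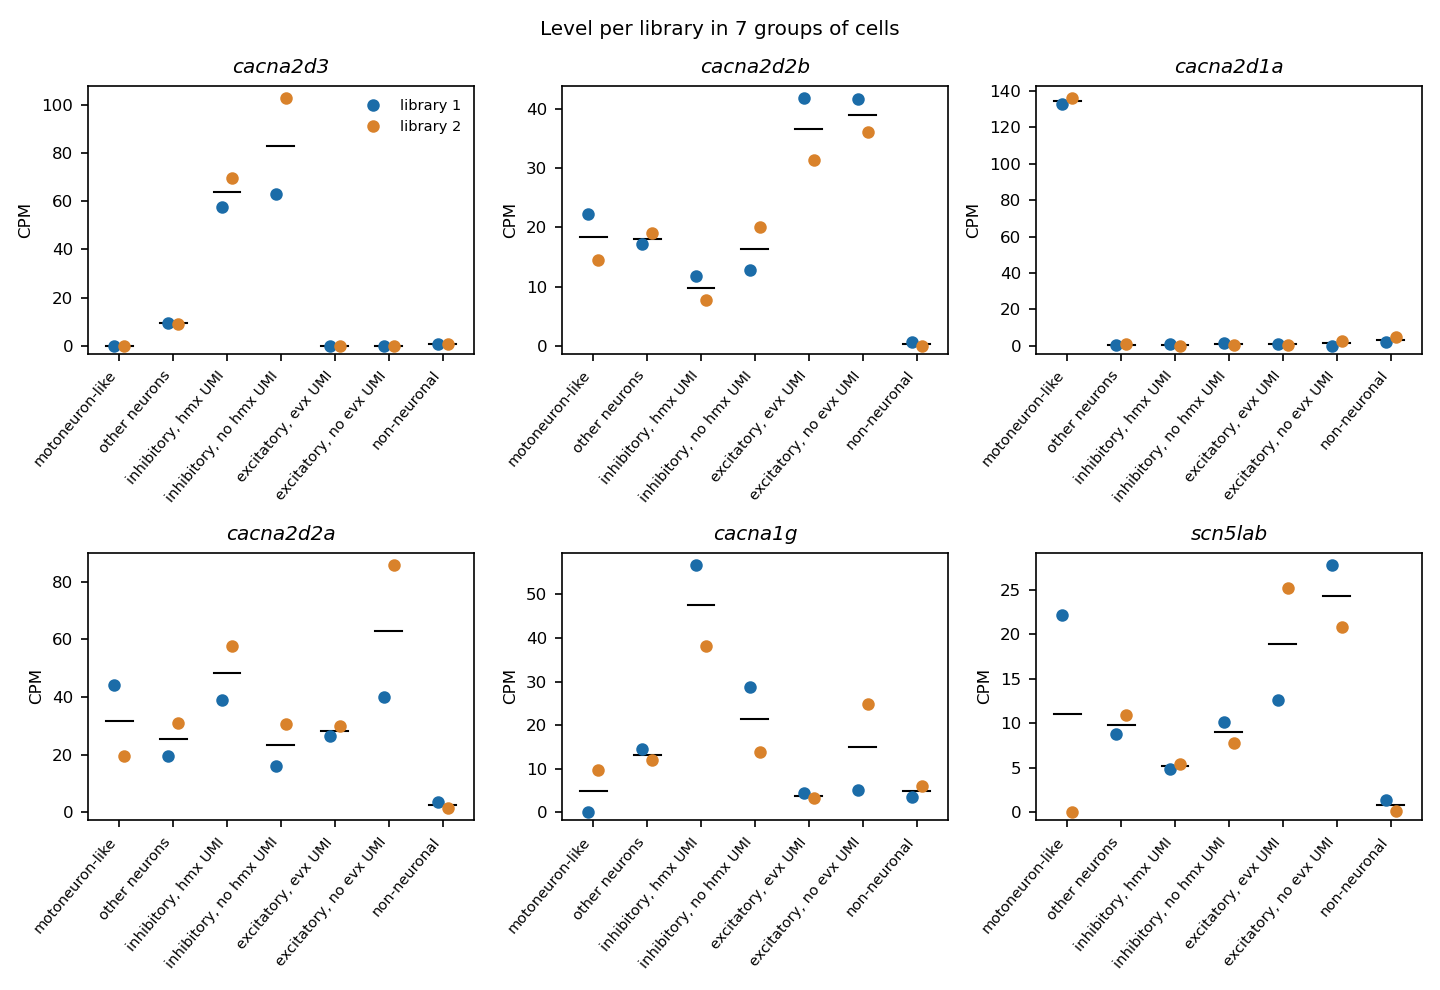
Points give the CPM (y axis) of 6 genes in 7 groups of cells (x axis) of library 1 (blue) and library 2 (orange), and black bars the mean of the 2 libraries. Inhibitory and excitatory neurons are divided by an hmx or evx UMI. *cacna2d3* is at 0 CPM in all excitatory and motoneuron-like points, *cacna2d1a* is above 130 CPM only in motoneuron-like cells, and *cacna2d2b* is highest in excitatory cells.

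Motoneuron-like cells were few, and the sum of library 1, with 12 cells, was below the minimum of 20 and did not enter the test. The fit thus rests on the 45 cells of library 2 and assumes that this lone sum varies like the others. Of 36 genes tested, 1 was higher in motoneuron-like cells than in inhibitory and excitatory neurons and 0 were lower. Over all genes, 0.858% were called higher and 1.09% in either direction (175 of 16080). The median log2 fold change was -0.30 over the 36 genes and -0.33 over all genes.

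*cacna2d1a* encodes α2δ-1, a subunit also known from muscle. It had 6 UMIs in the 12 motoneuron-like cells of library 1 (133 CPM) and 28 UMIs in the 45 of library 2 (136 CPM), against 1.36 and 0.269 CPM in inhibitory and 0.927 and 1.06 CPM in excitatory neurons. Relative to excitatory neurons the ratio over both libraries was 135 (exact 95% interval 52.4 to 441), and relative to inhibitory neurons it was 200.2 (71.4 to 777). The log2 difference was 6.91 ± 0.70 (SE, adjusted p = 0.00106). The UMIs lay in 3 of the 12 cells and 16 of the 45 cells, not in 1 cell, while 2 and 5 of the 1902 and 1414 other neurons had any. With every cell thinned to 2000 UMIs and the groups set again on the thinned counts, 29 motoneuron-like cells remained in library 2. *cacna2d1a* was then not called.

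In library 2, *cacna2d1a* was the most counted channel gene of motoneuron-like cells, above *scn8aa* at 131 CPM and *cacna1aa* at 121 CPM, which were 27 and 25 UMIs. *cacna1aa* differed by -1.12 ± 0.38 from the inhibitory and excitatory mean and *cacna1da* by -1.87 ± 0.69 (SE, adjusted p = 0.337 and 0.391). *cacna2d3* had 0 UMIs in these cells in both libraries. Muscle markers were at 820 CPM in the motoneuron-like sum of library 2 and at 625 to 746 CPM in the other neuron groups. Fibroblast-like markers were at 325 CPM in that sum, against 161 CPM in other, 71.0 CPM in inhibitory and 20.2 CPM in excitatory neurons. Progenitor-like markers were at 687 and 107 CPM in the motoneuron-like cells of the libraries, and the part of these cells was not tested. Fibroblast-like markers were at 0 CPM in the motoneuron-like cells of library 1. Non-neuronal cells of library 2, where these markers reached 5511 CPM, had *cacna2d1a* at 4.64 CPM. The part of fibroblast-like RNA in the motoneuron-like level of *cacna2d1a* was not tested.

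Other neurons were set against inhibitory and excitatory neurons, and 0 of the 36 genes differed by edgeR, against 0.634% of all genes called (102 of 16080). At an unadjusted p under 0.05 there were 8 of the 36, against 2167 of all 16080 genes, and DESeq2 called 1 of the 36. The lowest adjusted p was that of *cacng8a* (0.0706), with 2.83 and 3.98 CPM in other neurons, against 11.4 and 11.3 CPM in inhibitory and 13.4 and 9.21 CPM in excitatory neurons. *scn4ba* had 23.6 and 35.8 CPM, against 38.2 and 55.9 CPM and 77.0 and 82.5 CPM (log2 difference -0.99 ± 0.21, SE, adjusted p = 0.0818), and *scn1bb* 21.7 and 30.2 CPM, against 38.6 and 43.8 CPM and 41.3 and 52.1 CPM (-0.70 ± 0.15, SE, adjusted p = 0.0919). The median log2 fold change was -0.26 over the 36 genes and 0.04 over all genes. Neuron markers, which also set the groups, summed to 7951 and 8176 CPM in other neurons, and blood markers to 28.3 and 989 CPM, against 235 CPM in inhibitory and in excitatory neurons of library 2; their part in these levels was not tested.

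Partners of these channels, together with the sodium leak channel gene *nalcn* and genes of its complex, were read from a list of 47 genes, of which 41 were found and 32 tested. In neurons against non-neuronal cells, 25 were higher and 0 lower, against 22% of all genes called higher and 58.1% in either direction, among them the ankyrins *ank2a*, *ank2b*, *ank3a* and *ank3b* that anchor channels in the axon, the release-site scaffolds *rims1a* and *rims2a*, and *nalcn*. Between inhibitory and excitatory neurons, 1 was higher and 2 were lower, against 1.31% and 1.17% of all genes, with a median log2 fold change of -0.04. *fgf11b*, one of the intracellular FGF genes whose proteins bind sodium channels, had 9.55 and 17.2 CPM in inhibitory neurons, against 0.927 and 3.54 CPM in excitatory neurons (log2 difference 2.56 ± 0.44, SE, adjusted p = 0.0144). Its copy *fgf11a* ran the other way, with 4.55 and 3.23 CPM against 24.6 and 22.7 CPM (-2.61 ± 0.33, SE, adjusted p = 0.00241). *rem2*, a small GTPase that inhibits calcium channels, had 76.4 and 101 CPM against 242 and 184 CPM (-1.23 ± 0.21, SE, adjusted p = 0.0123). In hmx inhibitory against evx excitatory cells 2 of 31 were higher (*fgf12a* and *fgf14*) and 2 were lower (*fgf11a* and *rem2*), against 2.94% and 1.9% of all genes. In other neurons 0 of 32 passed by edgeR in either direction, against 0.634% of all genes. In motoneuron-like cells the median log2 fold change of the 32 was -0.43, against -0.33 over all genes.

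The libraries had like levels of most channel genes in neurons. Over all neurons, the log2 ratio of library 1 to library 2 (of CPM + 1) lay between -0.87 (*cacna2d1a*) and 0.69 (*cacng7a*) for the 36 genes, and for *cacna1aa* it was -0.08. Heat shock genes (5 of 5 found) summed to 15666, 13818, 15653, 12761 and 11035 CPM in motoneuron-like, other, inhibitory, excitatory and non-neuronal cells of library 1, against 1843, 2415, 2448, 2286 and 2940 CPM in those of library 2. The difference thus ran through every group, and the ratios within each library are those given beside the calls.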

How the data were processed

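The tables deposited by the authors hold UMI counts (genes by cells) that came from Cell Ranger 4.0.0 with the Lawson Lab zebrafish annotation. The genome build is not given in the sources used here, so no coordinates are printed. They were whole numbers, not normalized, after cell calling. Cells were kept by the study's limits (at most 12000 UMIs, 500 to 2500 genes, at most 6% mitochondrial UMIs), and multiplets were removed only by these limits. The study then left out immature cells without V0v genes and kept the cells that it assigned as V0v. That step was not taken here, so the cells are not the study's final set. The authors' hurdle model over cells was not used, because cells of 1 library are not replicates.

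UMIs were summed per library and group (at least 20 cells) and tested with edgeR 4.0.16 in R 4.3.3 (two-sided quasi-likelihood F test, TMM, filterByExpr, group and library as terms, 16080 genes tested in the fit over 5 groups and 13798 in the fit over the divided groups). The 25 genes that set the groups were left out of the tests. P-values were adjusted by Benjamini-Hochberg over all genes tested, with a threshold of 0.05. The SE of a log2 fold change is its size over the square root of F. Intervals of ratios and shares are exact, at 95%, and cover counting error only, and a count of 0 was bounded by a floor of 3 counts. The test was also tried on simulated counts, with a spread set in advance. Apart from the genes changed on purpose, these counts held no difference in level between groups or libraries. Recovery in the real sums may therefore differ. Between simulated inhibitory and excitatory neurons the test called 38.2% of genes changed 2-fold and 82.4% of those changed 4-fold. A missing call therefore does not show equal levels. Named genes are the 2 with the most UMIs of each class and, per comparison, up to 10 called genes in each direction with the same sign in both libraries; others were named after their values were seen. The genes and lists were chosen with earlier results of these data known. DESeq2 1.42.0, other size factors, filters, marker thresholds, depths and cell limits were tried as alternatives. In the tests on thinned cells the groups were set again, with 208 and 215 excitatory cells in place of 488 and 571. Shares of thinned cells keep the groups set at full depth.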

Additional observations from a re-analysis of the deposited data

Results flagged for a closer look

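The gene list also holds 2 entries in capitals that the symbol rule does not take. *CACNA2D1*, an α2δ-1 entry distinct from *cacna2d1a*, held 149 UMIs in kept cells, and is given here because it is a signal outside the genes compared. It had 4 and 5 UMIs in inhibitory neurons of libraries 1 and 2 (1.82 and 1.34 CPM), against 25 and 44 UMIs in excitatory neurons (11.6 and 15.6 CPM), and fell by 3.12 on the log2 scale (SE 0.47, edgeR, adjusted p = 0.00633). Non-neuronal cells held 0 and 1 UMIs. Between hmx inhibitory and evx excitatory cells it had 2 and 1 UMIs against 11 and 19 UMIs (log2 difference -2.60 ± 0.71, SE, edgeR, adjusted p = 0.0508). In the motoneuron-like cells, where *cacna2d1a* was high, it had 0 and 1 UMIs. The second entry, a further α2δ-3 symbol, had 1 UMI in all.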

How the results depend on the processing

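No value listed here changed direction under any alternative. Without the library term (no replicate block; the libraries are the only pairing of the groups), 147 of all genes separated inhibitory from excitatory neurons in place of 398, 96 motoneuron-like in place of 175, 0 other neurons in place of 102, and 302 hmx from evx cells in place of 667, and channel genes called between inhibitory and excitatory neurons numbered 1 in place of 3. With no filter on low counts the counts were 913, 473 and 816 for inhibitory, motoneuron-like and other neurons, with 5, 2 and 5 channel genes. With DESeq2 they were 306 motoneuron-like, 234 other (1 channel gene) and 437 hmx against evx. Thinning cells to 2000 UMIs left 76 motoneuron-like (0 channel genes), 28 other, 5351 in neurons against non-neuronal cells and 178 hmx against evx (2 channel genes), and 1 channel gene between inhibitory and excitatory neurons. Taking *slc32a1* as an inhibitory marker gave 255 genes and 1 channel gene there. In neurons against non-neuronal cells, thinning lost the calls of *cacna1ha*, *cacna1i*, *cacna2d2b*, *cacnb1*, *cacng2a*, *cacng7a*, *cacng7b*, *cacng8a* and *cacng8b*. Sums of at least 10 cells, an alternative chosen after seeing the data, gave 273 motoneuron-like and 190 other (1 channel gene). For other neurons the counts were 56 with 4 of 6 neuron markers, 249 with 2 of 6 (3 channel genes), 67 under a strict transmitter rule, and 0 without upper limits on UMIs and genes, which gave 410 for hmx against evx; a limit of 10% mitochondrial UMIs gave 1 channel gene there. The causes were not tested.

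*cacna2d3* passed in all 15 alternatives in both comparisons. *cacna1g* missed the threshold between inhibitory and excitatory neurons in 4 (adjusted p = 0.0961 without the replicate block, 0.0995 thinned, 0.0809 with *slc32a1* and 0.0672 without upper limits), and *cacna2d2b* in 5. With 1 library left out, which allows no test, *cacna1g* differed by 1.37 to 3.17 there, *cacna2d2b* by -1.75 to -0.997, *scn5lab* by -1.74 to -1.10 and *cacna2d3* by 10.51 to 11.26, a fitted value that depends on the prior count. Between hmx and evx cells the ranges were 3.43 to 3.59 (*cacna1g*), -2.07 to -1.90 (*cacna2d2b*), -2.26 to -1.43 (*scn5lab*) and 9.79 to 10.33 (*cacna2d3*), and *cacna2d1a* was at 7.74 without library 1. The median of all genes in the motoneuron-like comparison moved by 0.33 with DESeq2, -0.32 without a filter, -0.21 thinned and 0.20 without upper limits, and in neurons against non-neuronal cells by -0.13 with RLE size factors and -0.30 without a filter. All shares of cells depend on depth, and thinning to 1000 UMIs lowered the share of neurons with any channel UMI to 69.0% and 71.7%. With 12 and 45 motoneuron-like cells, 1 UMI is worth 22.2 and 4.85 CPM there.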

Other observations

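Further divisions of the transmitter groups, made after the values were seen and given without a test, showed channel genes that vary within a group. Of the inhibitory neurons, 209 of 576 in library 1 and 219 of 861 in library 2 had a UMI of *slc6a1b*, the GABA transporter gene and one of the 4 inhibitory markers. *cacna1g* had 91.5 and 53.6 CPM in those cells, against 12.9 and 11.6 CPM in inhibitory neurons without *slc6a1b*. *cacna1ba* had 61.8 and 59.9 CPM against 17.3 and 17.0 CPM, and *cacng8a* 23.5 and 32.6 CPM against 4.31 and 3.97 CPM. *scn4ba* ran the other way, with 16.1 and 17.9 CPM against 51.1 and 69.0 CPM, and *scn5lab* had 1.24 and 0 CPM against 11.5 and 9.39 CPM. *cacna2d3* had 39.6 and 90.4 CPM against 72.6 and 91.4 CPM. The median depth was alike on both sides, at 3844 and 4289 UMIs per cell against 3573 and 4252 UMIs.

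Of the excitatory neurons, 280 of 488 and 239 of 571 had a UMI of *skor2*, listed under another symbol and a marker of V0v cells. *scn4ba* had 106 and 138 CPM in those, against 37.9 and 43.9 CPM in excitatory neurons without *skor2*. *cacna1g* had 1.62 and 3.45 CPM against 8.65 and 12.6 CPM. *cacna1aa* differed little, with 266 and 297 CPM against 253 and 259 CPM.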
